A study of Mus musculus with 4 samples.

Results

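The genes described here encode the subunits of the proteasome, its activators and its maturation factor *Pomp*. They were chosen by symbol, as every gene listed with a name that begins Psma, Psmb, Psmc, Psmd or Psme followed by a digit, plus *Pomp*. This gave 46 of the 17559 genes listed, of which 8 were alpha core genes, 8 beta core genes, 3 immunoproteasome genes (*Psmb8*, *Psmb9* and *Psmb10*), 7 genes under the ATPase name, 14 of the lid and base, 5 activators and *Pomp*. One of the 7 ATPase names, *Psmc3ip*, is no proteasome subunit but a recombination factor, and was kept because the rule takes it by its name. RNA had been sequenced from mouse CD8+ T cells of strain C57BL/6, genotype OT-I, a transgenic T cell receptor for an ovalbumin peptide, with tissue given as LN. After magnetic negative selection to purities above 95%, all cells received plate-bound anti-CD3 (1 µg/ml) with anti-CD28 (2 µg/ml) and recombinant IL-2 (10 ng/ml) for 2 d and then IL-2 alone for another 2 d. The control group (2 libraries) and the group given 1 mM NaBu (2 libraries) were then kept for 12 h. NaBu is the usual short name of sodium butyrate, a histone deacetylase inhibitor. The labels do not say whether the 2 libraries of a group came from separate animals or cultures. The p-values rest on the spread between these libraries, estimated in part from all genes together. That spread may be technical.

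The proteasome degrades proteins tagged with ubiquitin. Its core particle is a stack of rings of alpha and beta subunits, and 3 of the beta subunits carry the active sites. In immune cells, and in other cells under interferon gamma, *Psmb8*, *Psmb9* and *Psmb10* take the places of *Psmb5*, *Psmb6* and *Psmb7* to form the immunoproteasome, which yields peptides suited to MHC class I. A regulatory particle made of an ATPase ring, further base subunits and a lid recognises, unfolds and feeds in the substrates, and activators of the Psme family can cap the core in its place.

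Expected counts totalled between 19857701 and 20548571 per library. All 46 members were listed in every library, and 45 passed the filter on low counts. *Psma8*, a testis form of an alpha subunit, did not pass, with 2, 2, 5 and 4 counts in control 1, control 2, NaBu 1 and NaBu 2. Leaving aside *Psmb11*, the thymus-restricted catalytic subunit, which had 13.4 to 21.5 counts per library, the tested members had between 88 counts (*Psmc3ip*) and 9327 counts (*Psmb8*) in a library. The T cell genes *Cd3e* (293.2 to 310.6 FPKM) and *Cd8a* (93.9 to 118.4 FPKM) were high in all 4 libraries, where FPKM is a level scaled to transcript length and library size. The 7 CD8+ T cell genes checked summed to 1644.9 to 1716.1 FPKM in the controls and 1533.3 to 1544.0 FPKM in NaBu. Of these, 6 were called lower and 1 higher, beside 34.1% and 34.5% of all tested genes. Markers of other cells were low. The 4 B cell markers with values summed to 4.13 to 5.77 FPKM in the controls and 1.96 to 2.62 in NaBu. The 9 myeloid and dendritic cell markers with values summed to 5.42 to 5.5 FPKM in the controls and 12.2 to 12.9 in NaBu. Of 5 tested, 4 were called higher, by 1.79-fold to 8.93-fold, and 1 lower. *Adgre1*, a macrophage marker at no more than 0.02 FPKM, had too few counts to be tested. The sums were 19.4 to 21.1 against 27.0 to 27.2 FPKM for CD4 T cell genes, 9.55 to 10.7 against 4.94 to 5.62 for NK cell genes, 20.9 to 22.0 against 16.8 to 17.5 for stroma and 1.34 to 1.39 against 6.69 to 7.37 for erythroid genes. Most of each sum, in both groups, came from 1 gene, in turn *Zbtb7b*, *Klrb1c*, *Pecam1* and *Hba-a1*. Behind these, *Cd4* went from 0.02 and 0.03 to 0.66 and 0.65 FPKM and *Col1a1* from 0.04 and 0.11 to 0.54 FPKM in both NaBu libraries, while *Hbb-bs* was at 0.16 and 0.48 FPKM in the controls and at 0 in NaBu. Their part in the results below was not tested.

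As a whole the proteasome genes moved little after NaBu, and the moves went mostly down. The 46 members summed to 4311.8 and 4466.8 FPKM in the controls and to 4222.4 and 4352.1 FPKM in the NaBu libraries, which overlap. Of the 45 tested members, 24 (53.3%) had a Benjamini-Hochberg adjusted p under 0.05 in edgeR's quasi-likelihood fit, against 68.6% of the 12943 genes tested. Higher members numbered 5 (11.1%, against 34.5% of all genes) and lower members 19 (42.2%, against 34.1% of all genes). In FPKM, 15 members had both NaBu libraries above both controls and 20 had both below, beside 48.0% and 35.9% of all tested genes (84.0% in either direction). The sizes were small. The median absolute log2 fold change was 0.22 over the tested members and 0.46 over all tested genes, and 2 members, *Psmb10* and *Psmc3ip*, changed 2-fold or more, as did 23.1% of all genes. When edgeR's glmTreat asked for changes beyond 1.5-fold, 3 members passed (6.67%, against 29.2% of all genes), and these were *Psmb10*, *Psmc3* and *Psmc3ip*, all lower.

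These directions depend on how libraries are put on one scale. The tests used TMM factors, under which the median over all tested genes was a log2 fold change of 0.005. On library totals, the scale that FPKM values also have, that median was 0.102, and the members' median was -0.01 in place of -0.11. The split among called members then went from 5 higher and 19 lower to 10 higher and 16 lower, where 40.0% of all tested genes were called higher and 28.7% lower (68.7% in all). None of the 9 members whose sign differed between the scales was called on the TMM scale. A fit that leaves out a library has 1 library in that group, so a call can be lost there while the estimate stays. Leaving out NaBu 1, 3 members were higher in place of 5. Ratios between subunits within a library do not depend on this scale, and are given below for that reason.

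**Figure D1:**
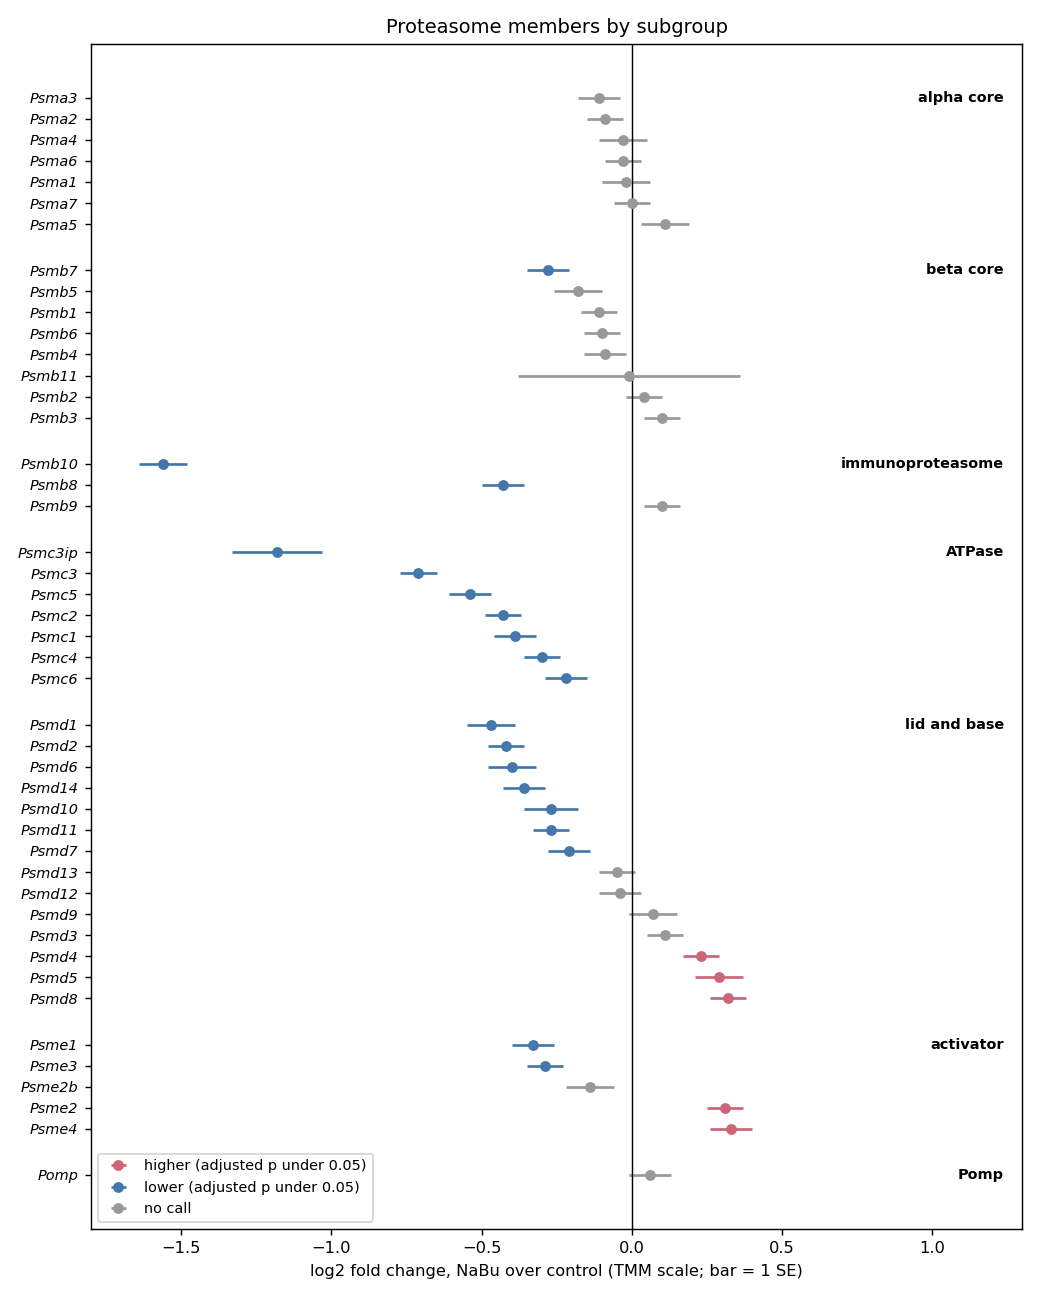
Log2 fold change of NaBu over control on the TMM scale for the 45 tested members, by subgroup. Points are edgeR estimates, bars are 1 SE, and colour gives the call. The alpha core sits near 0, all 7 genes under the ATPase name are lower, *Psmb10* lies farthest to the left at -1.56, and the lid and base genes spread from -0.47 to 0.32. On library totals every point shifts to the right by about the same amount, and 9 members that were not called change sign.

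The immunoproteasome genes, whose products are the inducible catalytic subunits, did not move together. *Psmb10* (gene 19171, mm10 chr8:105935728-105938392), which replaces *Psmb7*, was at 107.4 and 101.0 FPKM in the controls and at 34.6 and 41.0 FPKM in the NaBu libraries. The groups were far apart. It fell 2.95-fold on the TMM scale (log2 fold change -1.56 ± 0.08 SE, edgeR adjusted p = 6.6e-08) and was called lower in each of the 15 alternative fits, with log2 fold changes from -1.69 to -1.44. *Psmb8* (gene 16913, chr17:34198195-34201454), which replaces *Psmb5*, had the highest FPKM of all members, at 379.5 and 365.6 FPKM in the controls and 281.7 and 310.1 FPKM in NaBu. It fell 1.35-fold (log2 fold change -0.43 ± 0.07 SE, edgeR adjusted p = 0.00022), a change not past the 1.5-fold null (glmTreat adjusted p = 1.0). *Psmb9* (gene 16912, chr17:34182030-34187330), which replaces *Psmb6*, was at 191.3 and 177.7 FPKM in the controls and 206.3 and 217.0 FPKM in NaBu. Its NaBu values lay above its control values, yet it was not called on the TMM scale, with a log2 fold change of 0.10 ± 0.06 (SE, edgeR adjusted p = 0.176). On library totals it was called higher (log2 fold change 0.20, edgeR adjusted p = 0.0169), as it was without control 1 (adjusted p = 0.0431).

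Of the 3 subunits they replace, 1 was called. *Psmb5*, the gene of the chymotrypsin-like subunit, was at 96.0 and 84.4 FPKM in the controls and 82.4 and 88.2 FPKM in NaBu, and *Psmb6*, of the caspase-like subunit, at 103.6 and 98.5 against 97.5 and 104.0 FPKM. In both the groups overlapped and no call was made (edgeR adjusted p = 0.0591 and 0.18), though *Psmb5* was called lower without control 2 (adjusted p = 0.00816). *Psmb7* (chr2:38588046-38643952), of the trypsin-like subunit, went from 96.0 and 110.8 FPKM to 90.2 and 91.5 FPKM. It fell 1.22-fold (log2 fold change -0.28, edgeR adjusted p = 0.00611). The call was lost without NaBu 1 or without NaBu 2, though the log2 fold changes were -0.28 and -0.30.

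Within each library, the inducible and the constitutive gene of a site can be compared per length. The FPKM ratio of *Psmb10* to *Psmb7* was 1.12 and 0.912 in the controls and 0.384 and 0.448 in NaBu, or 0.41 ± 0.0738 times the control value (propagated SD, n = 2 per group). The ratio of *Psmb8* to *Psmb5* was 3.95 and 4.33 in the controls and 3.42 and 3.52 in NaBu. That is 0.838 ± 0.0566 times the control value (propagated SD). The ratio of *Psmb9* to *Psmb6* moved the other way, from 1.85 and 1.80 to 2.12 and 2.09, or 1.15 ± 0.0228 times. None of these 3 ratios overlapped between the groups. For single genes, 84.0% of all tested did not overlap in FPKM. In the controls the inducible gene was thus above the constitutive one at the *Psmb8* and *Psmb9* sites and close to it at the *Psmb10* site, and in NaBu *Psmb10* was below *Psmb7* in both libraries. The ratios are given as values, and the smallest two-sided p that an exact permutation test on 2 against 2 libraries allows is 0.333.

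**Figure D2:**
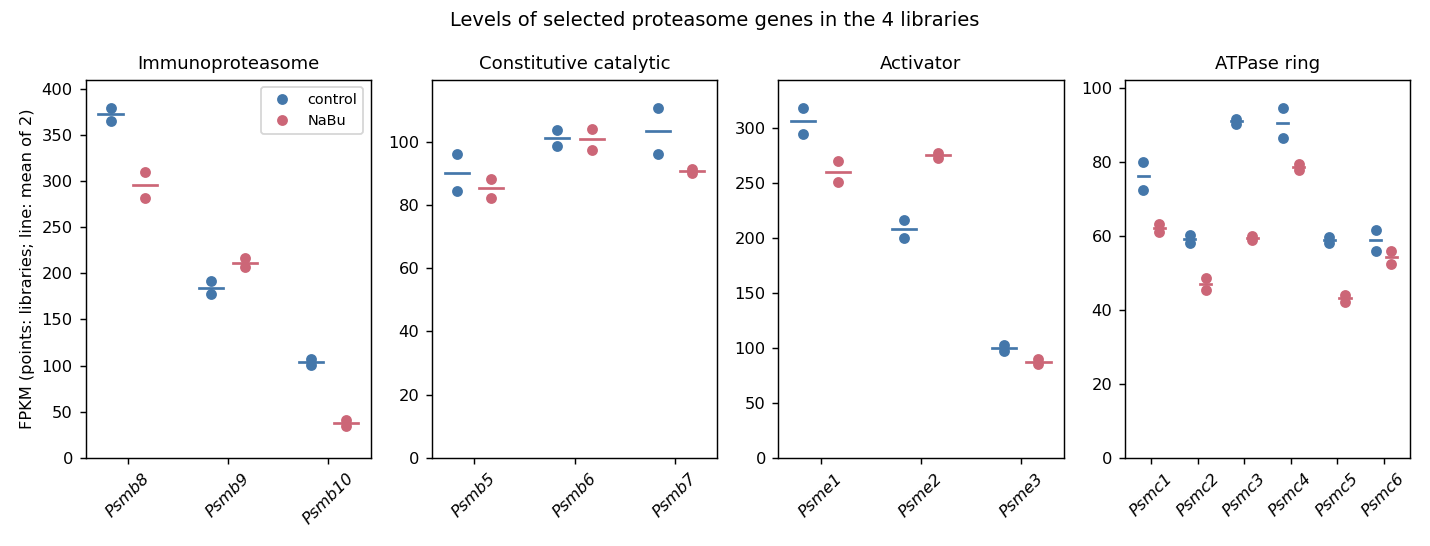
FPKM of the immunoproteasome genes, of the constitutive catalytic subunits, of *Psme1* to *Psme3* and of the ATPase ring in the 4 libraries. Points are libraries, lines are means of 2, and each panel has its own axis from 0. *Psmb10* drops from 104.2 to 37.8 FPKM on average, *Psme1* and *Psme2* cross, and in each ATPase gene the NaBu points lie below the control points.

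The 7 alpha core genes that build the outer rings, *Psma1* to *Psma7*, were steady. None was called, their log2 fold changes ran from -0.11 to 0.11, and their summed level was 695.6 and 755.4 FPKM in the controls and 755.9 and 768.3 FPKM in NaBu. Among them *Psma2* had the most transcript (149.6 and 152.1 FPKM in the controls, 149.8 and 153.4 in NaBu) and *Psma3* the least (43.5 and 48.3 against 45.5 and 45.7). Single libraries mattered here. Without control 1, *Psma1*, *Psma3* and *Psma4* were called lower (edgeR adjusted p = 0.0348, 0.0137 and 0.029), while *Psma5* was called higher without control 2 (adjusted p = 0.00746) and on library totals (adjusted p = 0.0329). The structural beta core genes *Psmb1*, *Psmb2*, *Psmb3* and *Psmb4* were not called either, with log2 fold changes from -0.11 to 0.10, although *Psmb2* and *Psmb3* were called higher on library totals (edgeR adjusted p = 0.0486 and 0.0167). *Psmb11* was at 0.15 to 0.25 FPKM in all libraries. *Pomp*, the chaperone that guides the assembly of the core, was at 122.9 and 136.6 FPKM in the controls and 142.1 and 147.0 FPKM in NaBu and was not called (log2 fold change 0.06 ± 0.07 SE, edgeR adjusted p = 0.459).

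The ATPase ring was the subgroup whose genes fell together. All 6 subunits, *Psmc1* to *Psmc6*, were lower on the TMM scale, with a median log2 fold change of -0.41 and a range from -0.71 to -0.22, beside 34.1% of all tested genes called lower. *Psmc3* (gene 19182, chr2:91054016-91059438) fell most. It was at 90.2 and 91.8 FPKM in the controls and 59.0 and 60.0 FPKM in NaBu, a 1.63-fold fall (log2 fold change -0.71 ± 0.06 SE, edgeR adjusted p = 1.68e-06), and past the 1.5-fold null. *Psmc5* (gene 19184, chr11:106256185-106263112) fell 1.46-fold, from 58.1 and 59.7 FPKM to 42.3 and 44.1 FPKM. *Psmc2* fell from 58.2 and 60.2 to 45.4 and 48.6 FPKM and *Psmc1* from 72.4 and 80.0 to 61.2 and 63.4 FPKM. *Psmc4* fell 1.23-fold, from 86.6 and 94.7 to 78.0 and 79.5 FPKM. *Psmc6* was the least changed, at 56.0 and 61.7 FPKM in the controls and 55.9 and 52.5 FPKM in NaBu. Its call (edgeR adjusted p = 0.0176) was lost on library totals (adjusted p = 0.15), where 5 of 6 were lower. It was also lost without control 2, NaBu 1 or NaBu 2, with log2 fold changes of -0.15, -0.26 and -0.17. In all 6 genes both NaBu libraries lay below both controls in FPKM, as in 35.9% of all tested genes, with *Psmc6* apart by no more than 55.91 against 56.03 FPKM. In every fit run the estimate of each of the 6 was below 0. *Psmc3ip*, which shares the first letters of their names alone, fell from 9.31 and 11.2 FPKM to 5.12 and 4.61 FPKM (edgeR adjusted p = 4.18e-05).

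Relative to transcript of the alpha genes, transcript of the ring was lower in both NaBu libraries than in both controls. The summed FPKM of the 6 ATPase genes, taken over that of the 7 alpha genes, was 0.606 and 0.593 in the controls and 0.452 and 0.453 in NaBu, 0.755 ± 0.0115 times the control ratio (propagated SD, n = 2 per group). By contrast the summed beta ring (*Psmb1* to *Psmb7*) over the alpha ring was 1.36 and 1.24 in the controls and 1.24 and 1.29 in NaBu, which overlap. In bulk RNA, fewer cells with a transcript and less of it per cell cannot be told apart.

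**Figure D3:**
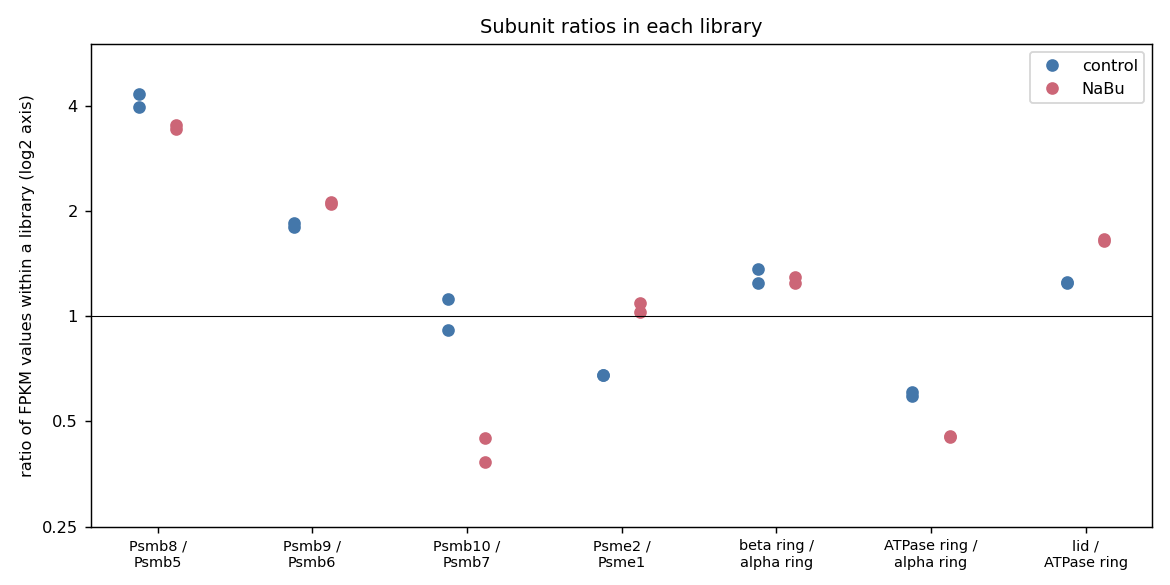
Ratios of FPKM values within each of the 4 libraries on a log2 axis, for inducible over constitutive catalytic subunits, for *Psme2* over *Psme1* and for summed subunit groups. Each point is 1 library. The groups are apart in every ratio shown but beta ring over alpha ring, where they overlap. In FPKM of single genes they are apart for 84.0% of all tested genes.

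The lid and the other base genes went both ways. Of the 14 members named Psmd, 3 were higher and 7 lower, with 4 not called, beside 34.5% and 34.1% of all tested genes. On library totals 4 were higher and 5 lower, beside 40.0% and 28.7%. The large base scaffolds *Psmd1* and *Psmd2* both fell. *Psmd1* went from 54.7 and 64.2 FPKM to 46.8 and 44.7 FPKM, and *Psmd2* from 97.2 and 105.8 to 80.4 and 81.3 FPKM, with log2 fold changes of -0.47 and -0.42 (edgeR adjusted p = 0.000306 and 0.000168). *Psmd4*, a ubiquitin receptor gene of the base, rose. It was at 75.1 and 78.8 FPKM in the controls and 96.8 and 95.6 FPKM in NaBu (log2 fold change 0.23 ± 0.06 SE, edgeR adjusted p = 0.00632). The call was lost without NaBu 1 or without NaBu 2, though the log2 fold changes were 0.21 and 0.23.

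Of the 8 lid subunits named Psmd, 4 fell, 1 rose and 3 were not called, beside 34.1% of all tested genes lower and 34.5% higher. On library totals 3 fell and 2 rose, beside 28.7% and 40.0%. *Psmd14*, the deubiquitinase that removes the ubiquitin chain from the substrate, fell from 58.4 and 64.4 FPKM to 50.6 and 51.6 FPKM (1.28-fold, edgeR adjusted p = 0.000715). *Psmd6* fell from 33.7 and 38.8 to 29.7 and 29.1 FPKM. *Psmd11* fell from 59.3 and 63.5 to 54.1 and 55.0 FPKM (log2 fold change -0.27), a call lost without NaBu 1, where the log2 fold change was -0.26. *Psmd7*, the catalytically inactive partner of *Psmd14*, was at 56.6 and 63.2 FPKM in the controls and 56.8 and 54.0 FPKM in NaBu. These groups overlapped, and its call (log2 fold change -0.21, edgeR adjusted p = 0.0211) was lost on library totals (adjusted p = 0.175). It was also lost without control 2, NaBu 1 or NaBu 2, with log2 fold changes of -0.13, -0.25 and -0.18. *Psmd8* (gene 57296, chr7:29174187-29180673) was the lid gene that rose, from 108.1 and 110.0 FPKM to 143.5 and 147.9 FPKM. Its groups were well apart, and its log2 fold change was 0.32 ± 0.06 (SE, edgeR adjusted p = 0.000587). *Psmd3*, *Psmd12* and *Psmd13* were not called, with log2 fold changes of 0.11, -0.04 and -0.05, and *Psmd3* was called higher on library totals and without control 1 (edgeR adjusted p = 0.0103 and 0.0297). The sum of these 8 lid genes was nearly level, at 528.3 and 555.6 FPKM in the controls and 568.9 and 570.0 FPKM in NaBu. Its ratio to the ATPase ring went from 1.25 and 1.24 to 1.66 and 1.64. Among the 8, the range of levels widened, from 3.01 times between the highest and lowest gene in the controls to 4.96 times in NaBu.

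Of the members named Psmd, 3 encode chaperones of ring assembly and no part of the finished particle. *Psmd5* was at 26.6 and 27.8 FPKM in the controls and 37.6 and 33.2 FPKM in NaBu and rose 1.22-fold (log2 fold change 0.29, edgeR adjusted p = 0.00662). The call was lost without NaBu 1, where the log2 fold change was 0.19. *Psmd10*, also known as gankyrin, fell from 12.3 and 13.1 to 11.6 and 10.9 FPKM (edgeR adjusted p = 0.0238). That call, with a log2 fold change of -0.27, was lost on library totals (adjusted p = 0.121). It was also lost without control 2, NaBu 1 or NaBu 2, with log2 fold changes of -0.23, -0.32 and -0.23. *Psmd9* was at 8.27 and 8.16 FPKM in the controls and 9.3 and 9.14 FPKM in NaBu and was not called.

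The activator genes moved in opposite directions, including the pair whose products form a common ring. *Psme1* (gene 19186, chr14:55578494-55581527) and *Psme2* (gene 19188, chr14:55587440-55591101) encode the alpha and beta chains of the interferon-inducible activator and lie close together on chromosome 14, with *Emc9* between them. *Psme1* was at 294.7 and 318.5 FPKM in the controls and 251.0 and 269.7 FPKM in NaBu, and fell 1.26-fold (log2 fold change -0.33 ± 0.07 SE, edgeR adjusted p = 0.00122). That call was lost without NaBu 1, where the log2 fold change was -0.28. *Psme2* went from 199.6 and 216.2 FPKM to 273.0 and 277.8 FPKM and rose 1.24-fold (log2 fold change 0.31 ± 0.06 SE, edgeR adjusted p = 0.00137). Their order was reversed, since *Psme1* was the higher of them in both controls and *Psme2* in both NaBu libraries. The FPKM ratio of *Psme2* to *Psme1* was 0.677 and 0.679 in the controls and 1.09 and 1.03 in NaBu. *Psme2b*, a copy of *Psme2* on chromosome 11, was at 29.0 and 29.2 FPKM in the controls and 27.5 and 28.8 FPKM in NaBu and was not called. Reads of near-identical copies are divided by estimation, and neither gene had whole counts. The counts of *Psme2* and *Psme2b* together were 4202 and 4547 in the controls and 5348 and 5460 in NaBu, so the sum was also higher in NaBu.

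*Psme3*, the gene of the nuclear activator, fell from 96.9 and 103.0 FPKM to 89.5 and 85.3 FPKM (log2 fold change -0.29 ± 0.06 SE, edgeR adjusted p = 0.00185). The call was lost without NaBu 2, where the log2 fold change was -0.26. *Psme4*, of a large activator made of a single chain, rose from 14.6 and 16.9 FPKM to 21.1 and 21.4 FPKM (log2 fold change 0.33 ± 0.07 SE, edgeR adjusted p = 0.00221). Its span overlaps that of *Erlec1*, as the span of *Psmd10* overlaps that of *Atg4a*, that of *Psmd1* holds *Htr2b* and that of *Psma3* overlaps an lncRNA gene. Without strand information, reads from such partners cannot be told apart where exons overlap.

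Promoter sequences were looked at because the 6 ATPase genes fell together while *Psmb8*, *Psmb9* and *Psmb10* did not move alike. RefSeq windows (GRCm38.p6, that is mm10) from 250 bases before to 50 after the start, were found for 39 members. The missing ones were *Psma8*, *Psmb1*, *Psmb2*, *Psmb7*, *Psmc3*, *Psmd3* and *Psmd7*. The lines below show bases before the start that no annotated exon covers for *Psmb10*, which fell most, for the ATPase genes *Psmc1* and *Psmc6* and for *Psmd4*, which rose. A stretch of 30 bases is shown for *Psmb8*, with its first capital 97 bases before the start. Unlike the other lines, its match lies in bases that an annotated exon covers. Capitals mark matches to a searched motif, all lines run 5′ to 3′ on the gene's strand, and *Psmb10* has no capitals because nothing matched.
Psmb10, chr8:105938445-105938642, minus strand: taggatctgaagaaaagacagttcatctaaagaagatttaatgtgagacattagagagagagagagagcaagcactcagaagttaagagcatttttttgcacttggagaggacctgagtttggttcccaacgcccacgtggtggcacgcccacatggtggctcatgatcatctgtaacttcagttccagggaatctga
Psmc1, chr12:100109952-100110153, plus strand: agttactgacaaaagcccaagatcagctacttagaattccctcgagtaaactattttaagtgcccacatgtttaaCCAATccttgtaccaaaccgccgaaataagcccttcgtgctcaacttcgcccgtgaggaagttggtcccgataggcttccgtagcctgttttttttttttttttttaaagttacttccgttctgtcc
Psmc6, chr14:45329574-45329787, plus strand: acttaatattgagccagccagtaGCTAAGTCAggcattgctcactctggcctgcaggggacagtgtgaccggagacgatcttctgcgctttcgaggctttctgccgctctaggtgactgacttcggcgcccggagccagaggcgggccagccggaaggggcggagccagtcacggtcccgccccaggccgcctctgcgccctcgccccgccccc
Psmd4, chr3:95042615-95042864, minus strand: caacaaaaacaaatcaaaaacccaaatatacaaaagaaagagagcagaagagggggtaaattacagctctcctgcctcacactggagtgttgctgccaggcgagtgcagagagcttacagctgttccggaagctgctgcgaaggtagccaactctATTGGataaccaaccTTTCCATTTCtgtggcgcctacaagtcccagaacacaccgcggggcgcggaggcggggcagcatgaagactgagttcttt
Psmb8, chr17:34198088-34198117, plus strand: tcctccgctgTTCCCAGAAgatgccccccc

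Matches on both strands were counted for 4 motifs, and matches of different motifs did not overlap in any member window. The core of the antioxidant response element, TGACNNNGC, through which *Nfe2l1* and *Nfe2l2* act on proteasome genes, was in 6 of 39 member windows (15.4%), against 3781 of the 27025 genes with a window. It is the capital run of *Psmc6*, and the other 5 genes were *Psmb5*, *Psmb6*, *Psmd9*, *Psmd12* and *Psme4*. The core of the interferon-stimulated response element, GAAA, any 2 bases and GAAA again, was in 4 (10.3%, against 3.99% of all genes), namely *Psmb3*, *Psmd4*, *Psmd9* and *Psme1*. In *Psmd4* it is the longer capital run, read on the other strand. The gamma-activated site, TTCNNNGAA, was in the windows of *Psmb8* and *Psmd2* (5.13%, against 9.55%), and the CCAAT box in 15 windows (38.5%, against 41.1%), among them those of *Psmc1* and *Psmd4* as shown. None of the 4 motifs was in the window of *Psmb10*, and *Psmb9* had the CCAAT box alone. Of the 16 members called lower with a window, 1 held TGACNNNGC, of the 5 called higher, 1, and of the 18 not called, 4. These are matches of letters in a short window and say nothing of binding.

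Genes around the proteasome moved in both directions, as did all tested genes, of which 34.5% were called higher and 34.1% lower. Of 9 tested assembly chaperones, 4 of them members described above, 2 rose and 3 fell (median log2 fold change -0.15). *Psmg1*, of the alpha ring chaperones, rose from 19.2 and 19.5 FPKM to 25.3 and 25.8 FPKM, and *Psmg4* fell from 24.5 and 22.4 to 19.3 and 19.6 FPKM. Both calls (edgeR adjusted p = 0.00785 and 0.0108) were lost without NaBu 1 (adjusted p = 0.0518 and 0.0682) or without NaBu 2 (adjusted p = 0.0722 and 0.0512). *Akirin2*, which takes proteasomes into the nucleus, fell from 20.9 and 22.5 to 16.2 and 16.3 FPKM. Of 17 tested regulators and associated proteins, 4 rose, 5 fell and 8 were not called (median -0.13). *Nfe2l1*, the factor best known for proteasome gene expression, was at 25.1 and 24.9 FPKM in the controls and 23.9 and 24.3 in NaBu and was not called (edgeR adjusted p = 0.118). Its relative *Nfe2l2* rose from 14.3 and 15.6 FPKM to 26.8 and 25.3 FPKM (log2 fold change 0.71, edgeR adjusted p = 1.22e-05), and *Mafk*, a small partner of these factors, also rose (log2 fold change 0.54). The deubiquitinases that sit on the regulatory particle fell, *Usp14* from 22.0 and 25.6 FPKM to 16.3 and 15.6 FPKM and *Uchl5* from 25.5 and 33.5 FPKM to 18.63 and 18.95 FPKM. *AI314180* fell from 28.7 and 31.2 to 22.1 and 22.0 FPKM. *Ublcp1*, a proteasome phosphatase, had the largest rise of this list, from 3.81 and 4.99 to 12.7 and 11.6 FPKM. *Psmf1*, the inhibitor protein gene, was at 14.2 to 14.7 FPKM in all 4 libraries and was not called.

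Upstream, most ubiquitin and ubiquitin enzyme genes were not called, while shuttle receptor and segregase genes fell more often than they rose. The counts below stand beside 34.5% of all tested genes higher and 34.1% lower (40.0% and 28.7% on library totals). Of 11 tested ubiquitin and ubiquitin enzyme genes 1 rose, 2 fell and 8 were not called (median -0.04). The conjugating enzyme gene *Ube2l3* rose (log2 fold change 0.20, edgeR adjusted p = 0.0182), a call lost without NaBu 1 or NaBu 2 (adjusted p = 0.166 and 0.139). *Ube2r2*, another conjugating enzyme gene, and *Uba6*, of an activating enzyme, fell (log2 fold change -0.61 and -0.41). Of 12 tested shuttle receptors and segregase genes 1 rose and 6 fell (5 on library totals), with a median of -0.18. *Vcp*, the ATPase that extracts ubiquitin-tagged proteins, fell from 161.4 and 181.7 FPKM to 106.1 and 108.9 FPKM (log2 fold change -0.77, edgeR adjusted p = 4.34e-06), and its cofactor gene *Nsfl1c* from 48.6 and 52.0 to 34.6 and 37.0 FPKM. The shuttle receptor *Ubqln2* fell from 19.4 and 18.7 to 10.7 and 11.4 FPKM, while *Ubqln1* rose from 40.3 and 40.0 to 55.0 and 57.2 FPKM. Downstream, 4 of 9 cytosolic peptidase genes rose and 4 fell (4 and 1 on library totals), with a median of 0.0. The aminopeptidase genes *Lap3*, *Lta4h* and *Npepps* rose (log2 fold change 0.41, 0.38 and 0.28), and *Blmh*, bleomycin hydrolase, fell (-0.39). *Nln* and *Tpp2* were called lower (edgeR adjusted p = 0.0459 and 0.0215) but not on library totals (adjusted p = 0.182 and 0.163), nor without control 2 (0.243 and 0.0752), NaBu 1 (0.0873 and 0.0965) or NaBu 2 (0.26 and 0.202).

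**Figure D4:**
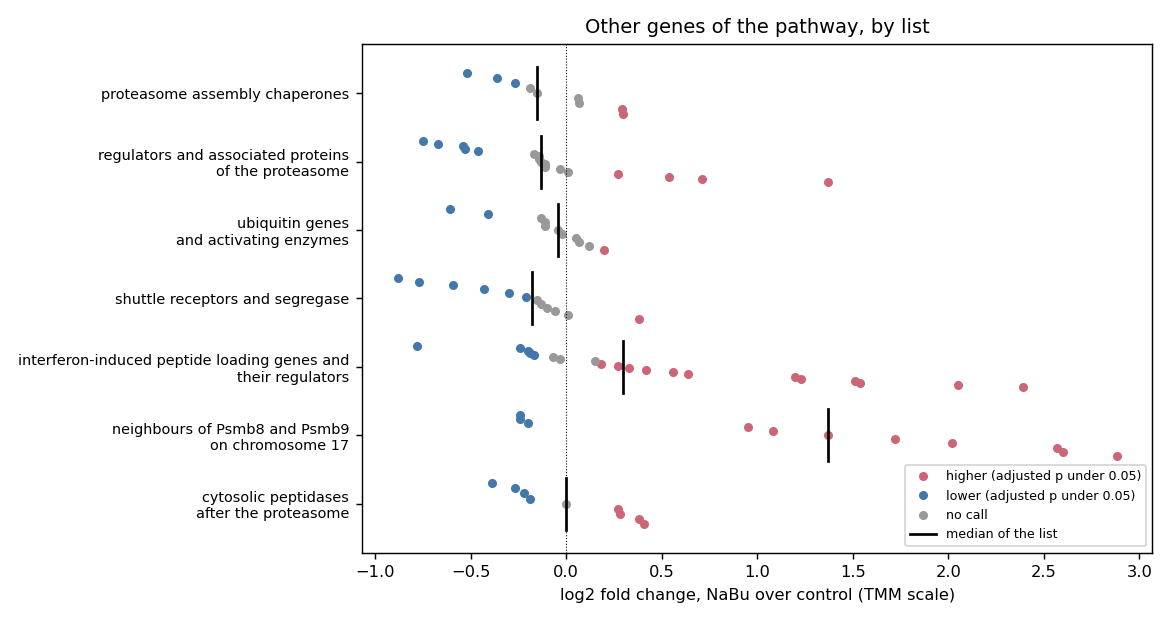
Log2 fold change of NaBu over control on the TMM scale for tested genes of 7 lists around the proteasome. Each point is 1 gene, colour gives the edgeR call, and the black bar is the median of the list, from -0.18 for shuttle receptors and segregase to 1.37 for the chromosome 17 neighbours. On library totals *Tap1* and *Tap2* among others are no longer called lower.

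*Psmb8* and *Psmb9* lie in the MHC class II region of chromosome 17 beside the peptide transporter genes *Tap1* and *Tap2*, and all of these are known targets of interferon gamma. Of 11 tested neighbours 8 rose and 3 fell, beside 34.5% and 34.1% of all tested genes. On library totals 8 rose and 1 fell, beside 40.0% and 28.7%. Their median log2 fold change was 1.37 beside 0.005 over all tested genes. Those that rose were class II genes and their partners, such as *H2-Ob*, from 0.57 and 0.49 FPKM to 3.47 and 3.42 FPKM, *H2-DMb2*, from 2.99 and 2.93 to 13.5 and 12.1 FPKM, and *H2-Aa*, from 0.05 and 0.27 to 1.46 and 1.13 FPKM. *Brd2*, a chromatin reader gene, was called lower (log2 fold change -0.24), but not without NaBu 2 (edgeR adjusted p = 0.11). *Tap1* was at 213.8 and 194.2 FPKM in the controls and 188.7 and 191.3 FPKM in NaBu, and *Tap2* at 159.2 and 148.6 against 139.5 and 138.3 FPKM. Both were called lower on the TMM scale (edgeR adjusted p = 0.0221 and 0.00511). Neither was on library totals (adjusted p = 0.2 and 0.0564), without NaBu 1 (adjusted p = 0.186 and 0.0758) or without NaBu 2 (adjusted p = 0.147 and 0.0882). So the 4 class I processing genes of this stretch, *Psmb8*, *Psmb9*, *Tap1* and *Tap2*, had log2 fold changes between -0.43 and 0.10, while their class II neighbours had between 0.95 and 2.88. The upper end is *H2-Aa*, which had 1 and 6 counts in the controls, and whose log2 fold change was 4.56 without control 2 and 2.12 without control 1.

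Among the interferon signalling genes of the list checked, all that were called rose except the kinase gene *Jak2*. Peptide loading genes went both ways. Of 20 tested peptide loading genes and regulators 12 rose and 5 fell, beside 34.5% and 34.1% of all tested genes. On library totals 13 rose and 1 fell, beside 40.0% and 28.7%. The median of the list was 0.30. *Irf1*, an interferon-induced transcription factor gene, rose from 86.3 and 84.7 FPKM to 266.8 and 253.4 FPKM (log2 fold change 1.51, edgeR adjusted p = 1.48e-08). *Irf8* rose from 41.5 and 37.9 to 224.8 and 220.1 FPKM, the receptor chain gene *Ifngr2* from 4.38 and 4.62 to 13.5 and 14.5 FPKM, and *Nlrc5*, the class I transactivator, from 68.2 and 62.8 to 107.7 and 110.0 FPKM. *Erap1*, which trims peptides for class I, fell from 47.1 and 55.8 to 31.4 and 32.7 FPKM. Of the other regulators, *Irf2* rose less (log2 fold change 0.33), *Ifngr1* and *Irf9* were not called (-0.07 and -0.03) and the kinase gene *Jak2* was called lower (-0.17, edgeR adjusted p = 0.0473), though not on library totals (adjusted p = 0.364). In the same libraries *Psmb8* and *Psmb10*, both known as targets of interferon gamma, were lower, and *Psmb9* and *Psme2* were at log2 fold changes of 0.10 and 0.31.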

How the data were processed

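Per the submitters' processing notes, the tools were Bowtie2 and RSEM and the build mm10. Their versions and the strand setting were not given in the sources used here. Per the file headers, each library has per-gene transcript lengths, FPKM values and expected counts. The authors' expected counts are unnormalized and were rounded before testing. The authors' FPKM values were used as deposited for levels. Genes a library did not list were set to 0. Coordinates came from the RefSeq table of GRCm38.p6, in which all 46 members were found.

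All genes were tested in all 4 libraries with edgeR 4.0.16 (R 4.3.3): filterByExpr at its defaults, TMM factors, the quasi-likelihood test between the 2 groups with no covariates, and Benjamini-Hochberg over 12943 genes at 0.05. Each SE is |log2 fold change| divided by the root of its F. Tested on simulated data for NaBu against control (12208 genes), it called 22.9% of genes changed 1.2-fold, 73.6% of those changed 1.5-fold and 92.2% of those changed 2-fold, and 6 of 12016 unchanged genes. These rates are over genes of all levels. In the simulation 12016 of 12208 genes were unchanged and directions were drawn at random, whereas 68.6% of genes were called in the data. The rates may therefore not carry over to the data, and the TMM scale was not tested under so wide a change. The members and lists were chosen with earlier results of these data known. All members are counted; those with their own values follow a rule (catalytic pairs, activators, *Pomp*, *Psmd14*, name-only and tissue-restricted members, the 3 largest called changes per subgroup and direction, up to 3 per list and direction, and 9 genes by name), and *Psma1* to *Psma5*, *Psmb1* to *Psmb4*, *Psmc1*, *Psmc2*, *Psmc4*, *Psmc6*, *Psmd3*, *Psmd7*, *Psmd9* to *Psmd13*, *Adgre1*, *Nlrc5*, *Irf2*, *Irf9*, *Ifngr1*, *Jak2*, *Cd4*, *Col1a1*, *Zbtb7b*, *Klrb1c*, *Pecam1*, *Hba-a1* and *Hbb-bs* were named after their values were seen. Some genes of these lists are not reported here. The alternatives were other scaling, filters, DESeq2 1.42.0, limma 3.58.1 on FPKM, limma-voom, glmTreat, a replicate block and leaving out each library.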

Additional observations from a re-analysis of the deposited data

How the results depend on the processing

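The count of higher members, 5 of 45 with the TMM scale, was 10 on library totals, 9 with at least 5 CPM in 2 libraries, 9 with limma on log2(FPKM + 1) and on log2(FPKM + 0.1), 8 with limma without a filter and 0 against a 1.5-fold null. Leaving out 1 library gave 3 to 7. The count of lower members, 19, was 3 against the 1.5-fold null and 10 with limma without a filter, and 13 to 22 when a library was left out. Without *Psmc3ip*, 18 were lower and 5 higher. The median log2 fold change of proteasome members, -0.105, became -0.008 on library totals, -0.124 without a filter, -0.051 with the 5 CPM filter, -0.012 in both filtered FPKM fits and -0.006 in the unfiltered one, and -0.151 to -0.111 when a library was left out. The cause of these shifts was not tested. Over 95 genes and up to 15 alternatives each, 1245 calls were the same, 148 were lost, 26 were gained and 0 changed sign; outside glmTreat, 65 genes had the same call in every alternative. The 3 catalytic ratios moved by less than their SD in every alternative, but these alternatives could hardly show otherwise. Scale and length factors cancel when ratios within libraries are compared between the groups. Leaving out 1 of 2 libraries shifts the mean of a group by less than the SD of its 2 values. No conclusion on the stability of these ratios is drawn from this. With the replicate number as a block, 24 members were called, as without it, and 8853 of all genes in place of 8884; the members' median was -0.103. Same-numbered libraries did not deviate together. Over the 12943 tested genes, the difference of control 1 from control 2 and that of NaBu 1 from NaBu 2 had a correlation of -0.0306. Whether same-numbered libraries share an animal, culture or day is not given. Members with few counts, *Psma8* and *Psmb11*, are limited by depth.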
